A study of Mus musculus with 2 samples.

Results

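Messenger RNA of 9 Six-family, Eya-family and Dach-family genes was measured in the pleuroperitoneal folds (PPFs) of mouse embryos at embryonic day 12.5. The PPFs are paired folds that give rise to the connective tissue of the diaphragm and that muscle progenitors enter. The genes were Six2, Six4, Six5, Eya1, Eya2, Eya3, Eya4, Dach1 and Dach2, chosen by symbol from the 38926 genes listed. All 9 were found in both libraries. The study holds a single group of wild-type embryos of mixed 129s/SvlmJ-C57/BL6J background, with 2 libraries (replicates 1 and 2), each pooled from 2 dissected pairs of folds. No other genotype, stage or tissue is part of the series, so a level cannot be called high or low for the folds. Other Six-family genes were not analysed here.

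Six-family proteins are homeodomain transcription factors that bind a DNA element called MEF3. Eya proteins do not bind DNA themselves. They are carried to target genes by Six-family proteins, act there as coactivators and also have phosphatase activity. Dach proteins are corepressors of the Ski family. In the mouse, members of these families act in muscle progenitors, kidney, inner ear and sensory ganglia, and the network is known from the eye of the fly, where the gene names come from.

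The libraries held 26370253 counts (replicate 1) and 23255957 counts (replicate 2). The label of the tissue was checked against markers: all 11 skeletal muscle markers found in the files, all 12 connective tissue markers and all 10 markers of mesothelium and folds had at least 1 TPM (a level per length of gene, scaled to the same sum in every library) in both libraries. All 10 Schwann cell precursor markers and all 10 erythroid markers passed that level too, so passing it does not single out the labelled tissue. The erythroid markers summed to 6032 TPM in replicate 1 and 5686 TPM in replicate 2. Markers of neighbouring tissue were also present, in amounts that differed between the libraries. The summed level of 12 hepatoblast markers was 145 TPM in replicate 1 and 352 TPM in replicate 2, that of 12 neuronal markers 48.3 and 85.0 TPM, and that of 12 mesonephros, gonad and adrenal markers 60.2 and 32.2 TPM. All values come from whole folds, in which fewer cells of a type and less RNA per cell cannot be told apart.

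Six2, Six4 and Six5 together and the 4 Eya genes were expressed at similar summed levels, and the Dach genes at a small share of either. The 3 Six-family genes summed to 121 TPM in replicate 1 and 122 TPM in replicate 2. The 4 Eya genes summed to 114 and 135 TPM, and both Dach genes together to 3.31 and 2.24 TPM. The Eya-family sum was 0.944 times the Six-family sum in replicate 1 and 1.11 times in replicate 2, so the order of these families differed between the libraries. The Six-family sum was 36.6 and 54.4 times the Dach-family sum. At a threshold of 1 TPM in both libraries 8 of the 9 genes were expressed, Dach2 being the exception, while 62.9% of 20768 protein-coding genes passed the same threshold. At 5 TPM in both libraries 7 of 9 passed, all of them Six-family or Eya genes.

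**Figure D1:**
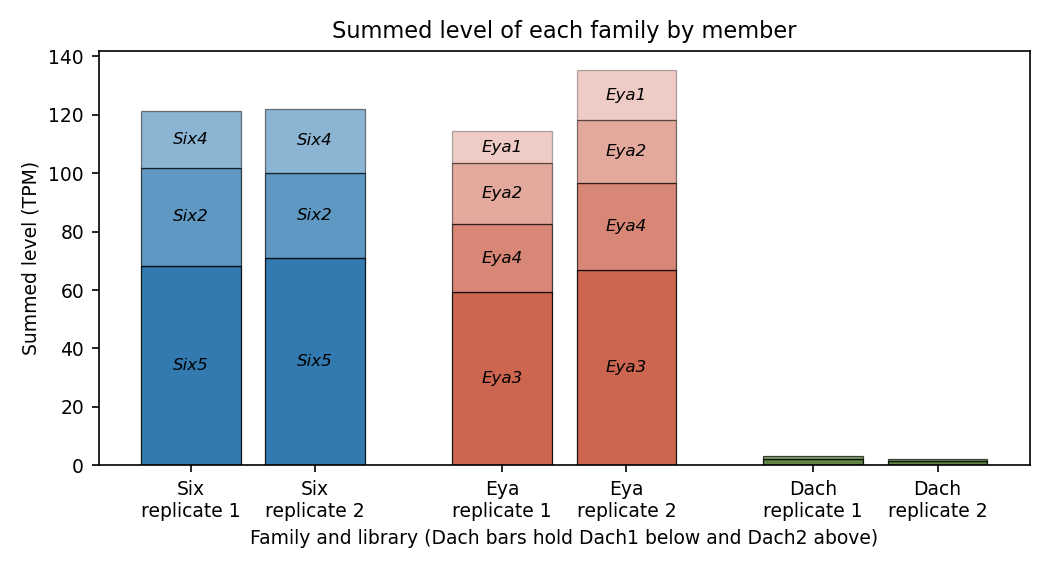
Summed level in TPM (linear axis from 0) of the Six-family (Six2, Six4 and Six5 alone), Eya and Dach genes in replicates 1 and 2, each bar divided by gene. The Six-family bars reach 121 and 122 TPM, the Eya bars 114 and 135 TPM, and the Dach bars 3.31 and 2.24 TPM.

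Among the 3 Six-family genes analysed, Six5 was highest, followed by Six2 and Six4. Six5, which lies beside the myotonic dystrophy kinase gene in human and mouse, is on chromosome 7 (19094594 to 19098549, GRCm38) and spans 3.96 kb. It had 1745 counts in replicate 1 and 1549 in replicate 2 over 3007 bases of exon. That is 68.4 TPM (95% counting interval 65.2 to 71.7) and 70.9 TPM (67.4 to 74.5). It held 56.5% and 58.0% of the level of the 3 Six-family genes. The mean was 69.6 ± 1.75 TPM (SD, n = 2), a coefficient of variation of 2.51%, against a median of 5.10% over expressed protein-coding genes. Its level was above that of 86.6% of protein-coding genes.

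Six2, which keeps nephron progenitors undifferentiated in the mouse kidney, lies on chromosome 17 (85684277 to 85688274). It had 600 counts and 33.2 TPM (30.6 to 36.0) in replicate 1, and 451 counts and 29.2 TPM (26.5 to 32.0) in replicate 2. The mean was 31.2 ± 2.88 TPM (SD, n = 2), and the counting intervals of the libraries overlapped.

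Six4, a homeobox factor that acts in mouse muscle formation, lies on chromosome 12 (73099609 to 73113456). It had 1165 counts in replicate 1 and 1131 in replicate 2, more than Six2 in both, but spread over 7035 bases against 2128 for Six2. Per length it was therefore lower, at 19.5 TPM (18.4 to 20.7) and 22.1 TPM (20.8 to 23.4). It held 16.1% and 18.1% of the level of the 3 Six-family genes, and Six2 held 27.4% and 23.9%.

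One of the annotated promoters of Six4 carries the letters of the element that Six-family proteins bind. The MEF3 element, written TCAGGTTTC, is known from the promoter of Myog, a myogenic regulator that was the highest of 17 muscle genes linked to Six-family binding or loss (648 TPM in replicate 1 and 649 TPM in replicate 2). RefSeq promoters of GRCm38.p6, from 250 bases before to 50 after a start, were searched on both strands for all 9 letters and for the first 7, TCAGGTT. The 9 letters occur in 0.429% (141) of 32841 promoters and the 7 letters, which they contain, in 4.07% (1337). Of the members 7 had promoter entries, and Six4 alone held either form, at 1 of its 2 starts. By position this match lies after the other start, inside the annotated gene. Of 19 listed target genes with an entry, Myog alone held either form. The sequences are shown 5′ to 3′ along the gene because both carry the 9 letters, on opposite strands. Capitals mark TCAGGTTTC in Myog and its reverse complement, GAAACCTGA, in Six4. In Myog (chr1:134289754-134290053, plus strand) they begin 84 bases before the start. In Six4 (chr12:73113196-73113495, minus strand) the reverse complement begins 99 bases before the start.
Myog: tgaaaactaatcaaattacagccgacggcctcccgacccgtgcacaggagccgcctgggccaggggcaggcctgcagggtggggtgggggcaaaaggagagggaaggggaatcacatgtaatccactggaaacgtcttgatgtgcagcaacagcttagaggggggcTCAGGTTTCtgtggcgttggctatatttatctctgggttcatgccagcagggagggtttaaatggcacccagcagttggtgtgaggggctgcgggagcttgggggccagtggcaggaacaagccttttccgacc
Six4: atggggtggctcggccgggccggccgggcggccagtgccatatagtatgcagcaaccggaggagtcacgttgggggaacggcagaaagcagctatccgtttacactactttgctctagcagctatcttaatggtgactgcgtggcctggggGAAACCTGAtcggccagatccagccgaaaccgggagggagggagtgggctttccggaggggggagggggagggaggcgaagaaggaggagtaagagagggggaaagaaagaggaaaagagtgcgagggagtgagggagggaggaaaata
A match of letters describes the sequence and is no evidence of binding, which was not measured.

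The promoters of the members also differed in CpG content. Six2 had 37 CG dinucleotides in its 300 bases, more than 94.4% of all promoters, and Eya4 had 36 and 28 at its overlapping entries. Eya3 had 25 and Six5 had 17, while the median over all promoters was 7. The entries of Six4 and Dach2 had 15 or 16 and that of Dach1 had 13.

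Among the Eya genes, Eya3 was highest and Eya1 lowest in both libraries. Eya3, the most widely expressed of the family in mouse tissues, lies on chromosome 4 (132638987 to 132724765) and had 2839 counts in replicate 1 and 2740 in replicate 2. Its level was 59.3 TPM (57.1 to 61.5) and 66.8 TPM (64.3 to 69.3), or 51.8% and 49.4% of the level of the 4 Eya genes. It thus stood near Six5 at the head of the 9 genes, and the counting intervals of Eya3 and Six5 overlapped in replicate 2.

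Eya4, a gene of hearing loss and heart muscle disease in humans, lies on chromosome 10 (23102963 to 23350786). It had 831 counts and 23.4 TPM (21.8 to 25.0) in replicate 1, and 910 counts and 29.9 TPM (28.0 to 31.9) in replicate 2. The intervals did not overlap. Its mean of 26.6 ± 4.60 TPM rests on a gene length of 4192 bases in the deposited table, while the longest GENCODE transcript has 5304. With the longest transcript as length for all genes, Eya4 stood at 16.7 TPM in replicate 1 and 21.4 TPM in replicate 2, below Eya2 in both. Six4 stood at 18.2 and 20.6 TPM on that scale, above Eya4 in replicate 1 and below it in replicate 2.

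Eya2, which is linked to muscle progenitors and which acts with Dach2 in chick somites, lies on chromosome 2 (165595032 to 165771727). It had 524 counts in replicate 1 and 468 in replicate 2, or 20.8 TPM (19.1 to 22.7) and 21.7 TPM (19.8 to 23.8). The libraries agree within counting error for this gene.

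Eya1, the gene of branchio-oto-renal syndrome in humans, lies on chromosome 1 (14168954 to 14310235). It had 402 counts and 10.8 TPM (9.81 to 12.0) in replicate 1, and 534 counts and 16.8 TPM (15.4 to 18.3) in replicate 2. Replicate 2 was the higher one by more than the counting error. The mean was 13.8 ± 4.22 TPM, above 57.6% of protein-coding genes, and Eya1 held 9.49% and 12.4% of the level of the 4 Eya genes.

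The Dach genes were the lowest members and had the longest gene lengths in the deposited table. Dach1, a corepressor of limb, eye and kidney development, lies on chromosome 14 (97786853 to 98169765) and spans 383 kb. It had 137 counts and 2.21 TPM (1.85 to 2.61) in replicate 1, and 86 counts and 1.62 TPM (1.29 to 2.00) in replicate 2. Dach2, its X-linked paralogue, lies on chromosome X (113297510 to 113836386) and spans 539 kb. It had 92 counts and 1.10 TPM (0.886 to 1.35) in replicate 1, and 45 counts and 0.627 TPM (0.458 to 0.839) in replicate 2, on either side of the 1 TPM threshold. Both genes had fewer counts in replicate 2, and Dach1 was above Dach2 in each library.

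**Figure D2:**
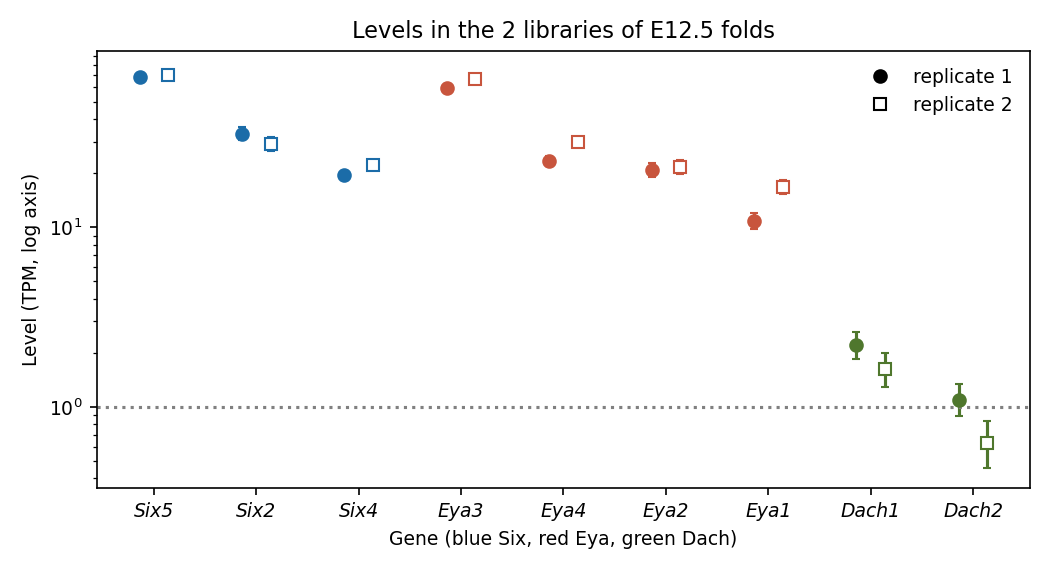
Level in TPM (log axis) of each gene in replicate 1 (filled circles) and replicate 2 (open squares), with 95% exact Poisson intervals of the counts; the dotted line marks 1 TPM. Six-family and Eya genes lie between 10.8 and 70.9 TPM and Dach genes between 0.627 and 2.21 TPM.

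In order of mean TPM the genes ran Six5, Eya3, Six2, Eya4, Eya2, Six4, Eya1, Dach1 and Dach2. Neighbours were taken as apart where neither the values of the libraries nor the counting intervals within each library overlapped. This held for 4 of the 8 neighbouring pairs: Eya3 over Six2, Six4 over Eya1, Eya1 over Dach1 and Dach1 over Dach2. Six5 and Eya3 were not apart, and neither were the neighbours among Six2, Eya4, Eya2 and Six4. With the longest transcript as gene length, Eya4 moved to below Six4 by the mean (19.0 against 19.4 TPM), and Dach2 reached 1.90 TPM in replicate 1 and 1.09 TPM in replicate 2, above the 1 TPM threshold in both. The other members kept their order. For Eya4, Eya1 and Six4 the listed length fell short of all GENCODE exons (4192 against 9419 bases, 4369 against 7808 and 7035 against 10855). Levels over all these exons were not computed.

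Overlap with other annotated genes was checked. No other gene in the GENCODE M21 annotation shares an exon base with the GENCODE exons of any of the 9 genes. The deposited spans of Six2, Eya4 and Six4 match no GENCODE span of these genes, and overlap within the deposited spans was not checked. For Six4 the deposited span ends at 73114037 and the GENCODE gene at 73113456. Small features listed inside the introns of the 9 genes held few reads: the largest count was 2, for those inside Eya2 in replicate 1.

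How far the libraries differed was tested with an exact two-sided binomial test of each gene's counts, with Benjamini-Hochberg adjustment over 19433 genes. The test compares the reads of these libraries, not conditions or animals. Of the 9 members 3 were higher in replicate 2 (Eya1, Eya4 and Eya3), 1 was lower (Dach2) and 5 were not called. Over all genes tested 17.5% were called, 8.85% higher and 8.65% lower. A gene with more counts is called at a smaller ratio, and this share was not matched to the counts of the members. The median log2 ratio of replicate 2 to replicate 1 was 0.02 for the members and -0.01 over all genes tested.

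Eya1 differed most among the higher genes. Its log2 ratio was 0.59 (95% interval 0.40 to 0.78, exact binomial adjusted p = 1.69e-08), which is 1.51-fold higher in replicate 2. Eya4 had a ratio of 0.32 (0.18 to 0.45, exact binomial adjusted p = 9.87e-05) and Eya3 of 0.13 (0.06 to 0.21, exact binomial adjusted p = 0.00574). Dach2 had a ratio of -0.84 (-1.40 to -0.32, exact binomial adjusted p = 0.00949), 0.559 times the level of replicate 1. No member passed 2-fold together with the threshold, as 1.26% of all genes tested did.

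The remaining members did not pass the threshold. Dach1 had a log2 ratio of -0.48 (-0.89 to -0.09, exact binomial adjusted p = 0.0773) and Six2 of -0.23 (-0.41 to -0.05, exact binomial adjusted p = 0.0607). Six4 had 0.14 (0.02 to 0.26, exact binomial adjusted p = 0.0907). Eya2 and Six5 had 0.02 (-0.16 to 0.20) and 0.01 (-0.09 to 0.11). These intervals cover counting error alone.

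**Figure D3:**
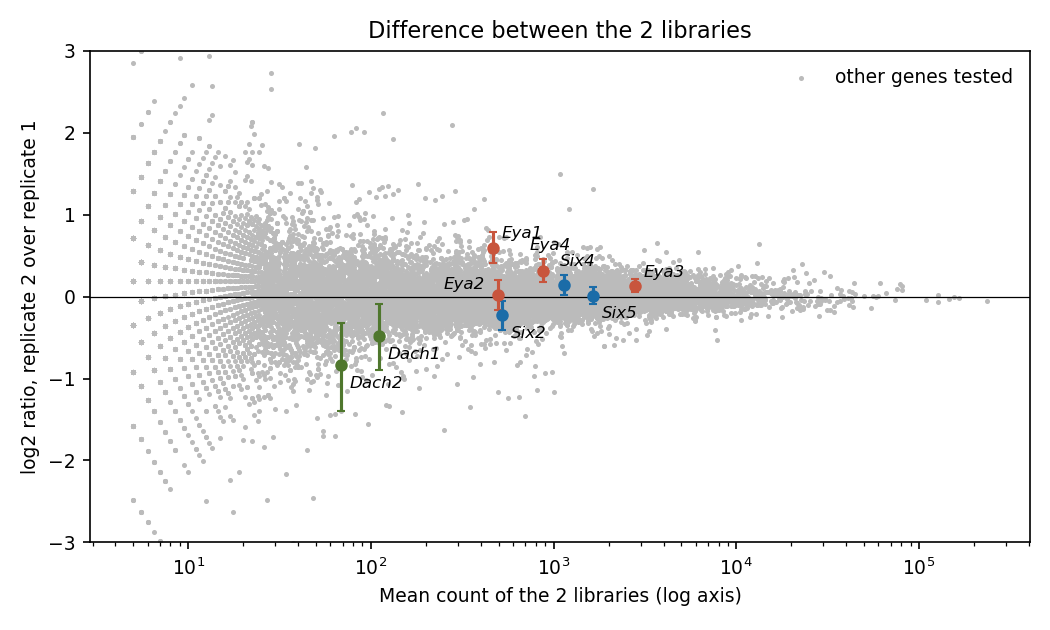
Log2 ratio of replicate 2 to replicate 1 against the mean count of both libraries (log axis) for the 9 members (coloured, with 95% intervals) and the other genes tested (grey). Eya1 lies at 0.59 and Dach2 at -0.84; 27 genes tested lie beyond 3 on the log2 scale and are not drawn.

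Markers of other cells moved between the libraries as well. Of 10 mesonephros, gonad and adrenal markers tested 8 were lower in replicate 2, the direction of Dach2, and none higher. In that list Cdh16 had 20 counts in replicate 1 and 0 in replicate 2. Nr5a1 (0 and 1 counts) and Emx1 (1 and 0 counts) had too few counts to be tested. Of 11 hepatoblast markers tested 9 were higher in replicate 2 and of 12 neuronal markers 8, the direction of Eya1, Eya3 and Eya4, with none lower in either list. Among Schwann cell precursor markers 4 of 10 were higher and none lower, and their summed level was 273 TPM in replicate 1 and 310 TPM in replicate 2. Of 11 muscle markers 4 were higher and 1 lower, with sums of 3989 and 4117 TPM. Of 12 connective tissue markers 5 were lower, also the direction of Dach2, and 2 higher by the scaled count ratio. The median log2 ratio of this list was 0.008, and its sums were 8696 TPM in replicate 1 and 8860 TPM in replicate 2. Col1a1 and Col3a1, among the 5, had slightly more TPM in replicate 2 (2798 and 2822 TPM in replicates 1 and 2 for Col1a1, and 2507 and 2535 TPM for Col3a1). Of 10 erythroid markers 3 were higher and 2 lower, and of 10 markers of mesothelium and folds 3 were higher and none lower. The Schwann cell precursor, muscle, erythroid and mesothelium lists thus also had more markers higher than lower, the direction of Eya1, Eya3 and Eya4. By summed level the erythroid list went the other way, with 6032 TPM in replicate 1 and 5686 TPM in replicate 2. The mesothelium list had sums of 1134 and 1190 TPM. The part of these markers in the differences of the members was not tested.

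Gene length moved with the library ratio too. Among protein-coding genes with at least 100 counts, the median log2 ratio was -0.12 in the shortest decile (up to 1592 bases) and 0.10 in the longest (from 8474 bases). Set against the median of their own length decile, Eya1 stood at 0.60, Eya4 at 0.33, Eya3 at 0.11, Six2 at -0.15, Dach1 at -0.53 and Dach2 at -0.94. These differences carry no test, and the part of gene length in the ratios of the members was not tested.

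**Figure D4:**
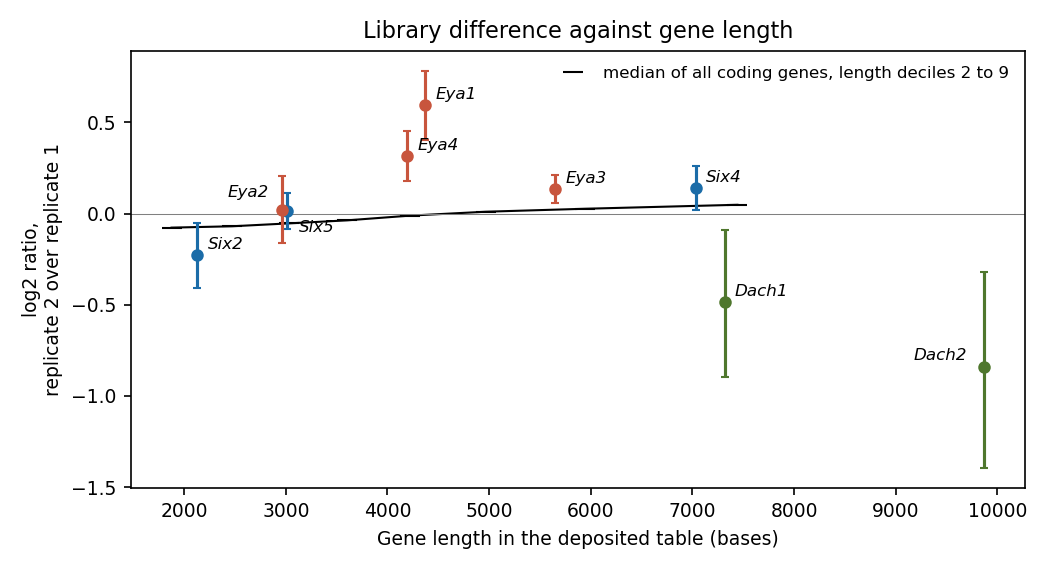
Log2 ratio of replicate 2 to replicate 1 against gene length in bases for the 9 members, with 95% intervals, and the median ratio of protein-coding genes by length decile (black line, deciles 2 to 9). The line rises with length, while Dach1 and Dach2 lie at -0.48 and -0.84.

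Genes known to act with the members were mostly expressed, except the Pax genes. For this and the following lists, 62.9% of all protein-coding genes passed the same threshold of 1 TPM in both libraries. Between the libraries 17.5% of all genes tested were called. Pax transcription factors stand upstream of or beside Six-family and Eya genes in several organs. Of 9 Pax genes, 2 had at least 1 TPM in both libraries, the muscle progenitor genes Pax7 (20.6 TPM in replicate 1 and 25.5 TPM in replicate 2) and Pax3 (3.66 and 3.89 TPM). Pax7 was higher in replicate 2 (log2 ratio 0.27, exact binomial adjusted p = 0.000243). Pax8, a gene of the nephric duct, had 69 counts in replicate 1 but 3 in replicate 2 (log2 ratio -4.13, 95% interval -6.65 to -2.73), and Pax1, a sclerotome gene, had 4 and 15 (1.97, 0.44 to 4.14). Pax4, a pancreatic gene, was among 2 Pax genes with no count in either library. For Pax4 this allows up to 0.181 and 0.211 TPM from a floor of 3 counts per library. Six5, Six2, Six4 and each Eya gene stood above Pax3 in both libraries, and Dach1 and Dach2 below it.

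Corepressor genes were expressed in all 15 cases found. Aes, a short member of the Groucho family whose long members bind Six-family proteins, stood at 578 TPM in replicate 1 and 501 TPM in replicate 2. Hdac2, a histone deacetylase gene, had 189 and 179 TPM. Ski, a corepressor gene related to the Dach genes, had 155 and 164 TPM, so that the level of this relative was far above that of Dach1 and Dach2. Sobp, which encodes a Six-binding cofactor, was the lowest at 10.2 and 12.2 TPM. Of these genes 3 were higher and 4 lower in replicate 2, Aes with a log2 ratio of -0.24 and Hdac2 of -0.12, and none by 1.5-fold.

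The genes of the known phosphatase settings of Eya proteins were expressed in all 9 cases found. H2afx encodes the histone variant whose tyrosine phosphate mammalian Eya proteins remove, and had 332 TPM in replicate 1 and 287 TPM in replicate 2. The PP2A subunit genes Ppp2r1a and Ppp2ca had 277 and 277 TPM and 144 and 142 TPM. Esr2, an oestrogen receptor gene whose protein Eya2 dephosphorylates in human cells, was the lowest at 1.47 and 1.84 TPM. In this list 3 genes were higher and 2 lower in replicate 2.

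Muscle genes linked to Six-family binding or loss, listed from general knowledge of the mouse, were expressed in 17 of 17 cases. Myog was highest, at the level given with its promoter, followed by the glycolytic gene Aldoa (578 TPM in replicate 1 and 619 TPM in replicate 2) and the embryonic myosin gene Myh3 (522 and 561 TPM). The lowest was Myf6, a late myogenic regulator, at 3.40 and 4.08 TPM. Of the 17 genes 3 were higher and 1 lower in replicate 2, and 13 were not called. The median level of the list was 115 and 125 TPM, against 20.8 and 22.1 TPM for the 9 members.

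Of 11 targets outside muscle 9 were expressed. Igfbp5, a binding protein gene of the insulin-like growth factors, was highest at 2629 TPM in replicate 1 and 2732 TPM in replicate 2. The cell cycle gene Ccnd1 had 139 TPM in replicate 1 and 146 TPM in replicate 2. Sall1, a zinc finger regulator of kidney growth, was the lowest, at 0.247 and 0.393 TPM. In this list 3 genes were higher in replicate 2 and none lower. The lists came from general knowledge of other tissues, and their levels do not show that Six-family proteins act on these genes in the folds.

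**Figure D5:**
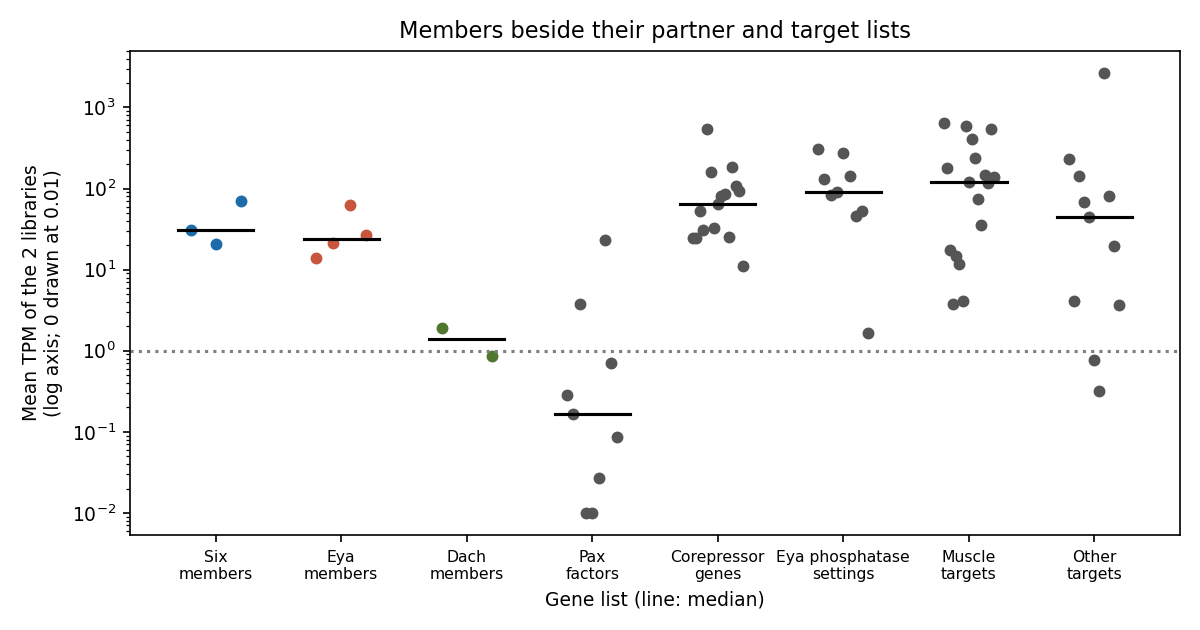
Mean TPM of both libraries (log axis, genes at 0 drawn at 0.01) for the members and for 5 lists of partner and target genes; each point is a gene, black lines are medians and the dotted line marks 1 TPM. Six-family and Eya genes lie above most Pax genes, and 17 of 17 muscle targets lie above 1 TPM.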

How the data were processed

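RNA of 2 libraries was analysed. The submitters' processing notes list featureCounts, STAR 2.4.0a and SAMtools 1.3, with mm9 as the build; no source here gives the strand setting of the counting. Of the listed symbols found in GENCODE M21 (GRCm38), 77.4% (27638) had the position of its gene or of one of its transcripts, so positions are given as GRCm38 from that annotation. The deposited counts are raw reads per gene. The deposited TPM, made by the authors, equals count over listed length after scaling both libraries to one sum (largest difference 4.73e-11).

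The members and lists were chosen with earlier results of these data known. Per-library counts were given exact Poisson 95% intervals, for counting error only, since PCR copies of a molecule cannot be told from independent ones. Library ratios used counts plus 0.5, scaled by TMM (edgeR 4.0.16, factors 1.001 and 0.999), and exact binomial tests (SciPy 1.17.1) on genes reaching 10 counts in the libraries combined, called at an adjusted p under 0.05. No label says that the pools came from separate litters, so the spread between libraries may be technical. Protein-coding genes were taken from GENCODE and RefSeq symbols. From each list the 3 highest, the lowest and genes called at 1.5-fold were to be named; marker genes are given as lists, and Emx1, Col1a1 and Col3a1 were named after their values were seen. 1 gene under this rule is not reported here by name. No likeness of pattern was computed over 2 libraries. Alternatives included DESeq2 1.42.0 size factors.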

Additional observations from a re-analysis of the deposited data

How the results depend on the processing

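With the longest GENCODE transcript as gene length, the Six-family sum (Six2, Six4 and Six5 alone) was 111 TPM, the Eya-family sum 117 TPM and the Dach-family sum 3.92 TPM. Without one replicate the Six-family sum ranged from 121 to 122 TPM, the Eya-family sum from 114 to 135 TPM and the Dach-family sum from 2.24 to 3.31 TPM, and the number of members expressed from 8 to 9. At 0.5 TPM 9 members passed and at 5 TPM 7. Neighbours apart numbered 4 with either length. Under library totals, DESeq2 size factors, other count filters (none, or at least 50) and without features under 200 bp, 3 members were higher and 1 lower in replicate 2, each of the 9 ratios kept its direction and its side of the threshold, and all genes called ranged from 3146 to 3474. The adjusted p of Six2 ranged from 0.0503 to 0.0804 there, and that of Dach1 from 0.0643 to 0.102. The correction for gene length was chosen after seeing the data. Recomputing TPM over protein-coding genes alone moved 7 of the 9 member levels by at least the SD of the libraries. Leaving out short features and mitochondrial genes moved 6. Both changes rescale all genes kept in a library by the same factor, so these counts depend on the SD of each gene. They leave the order of the members within a library unchanged. Using the longest transcript as length moved 5 of the levels. Over protein-coding genes alone the mean of both libraries was 32.8 TPM for Eya4 and 1.07 TPM for Dach2. The level of Dach2, 0.863 TPM, was 1.5 TPM with the longest transcript as length and ranged from 0.627 to 1.10 TPM without one replicate; its 45 counts in replicate 2 have a counting interval of 32.8 to 60.2. No paired analysis was possible because the series has a single group.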
